A study of Oryza sativa with 20 samples.

Results

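Chilling is sensed by rice, a plant of warm climates, within the first minutes to hours, and the transcripts that change first in such a response are commonly those of signalling, hormone and metabolic genes, ahead of the cold-regulated protective proteins that accumulate later. Sucrose synthesis, gibberellin and jasmonate perception, water transport through aquaporins and reactive oxygen scavenging are among the processes known to respond to low temperature in plants, and DREB/CBF factors, which bind the drought and cold element of promoters, are the best known regulators. The shortest exposure of a chilling series in rice is described here: shoots after 0.5 hours at 10°C, each set against shoots kept at 29°C for the same time. These are 4 of the 20 columns of the series, all columns labelled 0.5 hours, that is 2 of its 10 slides, and all 6080 features of the array were used.

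The plants were of the japonica cultivar CT6748-8-CA-17, which tolerates chilling. They were raised at 29°C to the S3 seedling stage before the transfer, kept in continuous light, and all groups were of this 1 genotype with no chemical treatment. Chilled RNA carried Cy3 and its own 29°C control carried Cy5 on a cDNA array of ESTs from stress libraries, so each value is the log2 ratio of chilled over control within a slide, and a value of 1 is a 2-fold higher ratio. Each slide held every feature in 2 spot sets, which were averaged, and the 2 biological replicates were then averaged, so n = 2 throughout. The methods give the same dye orientation for every slide, so a dye preference of a feature and its response to chilling cannot be told apart. For a slide of a later time, described below, the orientation is unsettled. A ratio in whole shoots does not separate fewer cells of a type from less RNA per cell. The ratios carry no level, so whether the samples are shoots could not be checked from marker genes as such. None of the 5 photosynthesis features was above 0 in its mean. Of the 4 seed storage protein features 1 was, against 3697 of all 6010 features.

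The 4 columns held 5886 to 5995 values each, with medians of 0.14 to 0.26, so the typical feature stood slightly above 0 in chilled shoots before any centring. Values beyond 5 in size numbered 3 to 12 per column. A replicate at 2 hours had the opposite sign to the other slides, its correlation with both 0.5 hour replicates being -0.549 and -0.454, and the 2 hour slides were kept out of the tests.

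The replicates at 0.5 hours agreed poorly. Across features the spot sets of a slide correlated at Spearman 0.898 in replicate 1 and 0.692 in replicate 2, while the replicates correlated with each other at only 0.0778, against 0.443 at 6 hours, 0.479 at 12 hours and 0.453 at 24 hours. Genes are not independent replicates, and these correlations are given as a description. The median difference between replicates was 0.698 on the log2 scale, and that between the spot sets of a slide was 0.186 and 0.221. Of the 6010 features with a value in both replicates, 2139 (35.6%) stood above 0 in both, 844 below 0 in both and 3024 (50.3%) had opposite signs. As many as 1161 features reached 1.8-fold higher in replicate 1 and 851 did in replicate 2, with 312 (5.19%) in common. Lower at this fold were 756 (12.6%) in replicate 1 and 162 (2.7%) in replicate 2, with 21 (0.349%) in common.

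**Figure D1:**
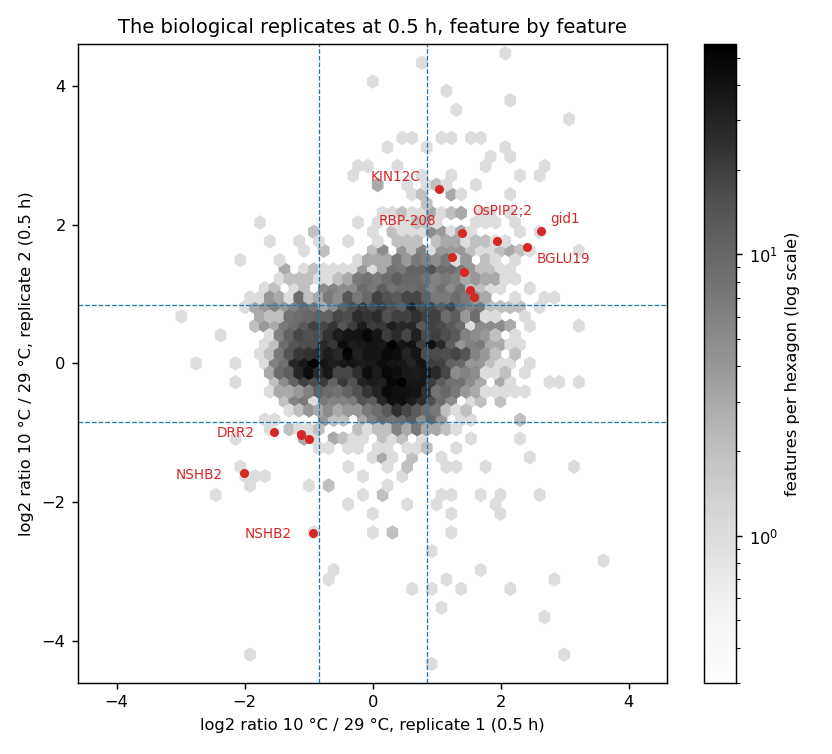
Each feature by its log2 ratio of 10°C over 29°C at 0.5 hours in replicate 1 (x axis) and replicate 2 (y axis), as hexagons shaded by the number of features, with dashed lines at 1.8-fold and, in red, the 10 highest and 6 lowest named features among those that reach it in both replicates. The cloud has no diagonal (Spearman 0.0778), the upper right corner holds 312 features and the lower left corner 21; 15 features beyond 4.6 in size are not drawn.

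Each replicate correlated more closely with some slides of other times than with its partner. Replicate 2 at 0.5 hours correlated at 0.653 with replicate 1 at 2 hours. It correlated at 0.555 and 0.523 with the slides at 6 hours and at 0.437 and 0.526 with those at 12 hours. Spot set 2 of replicate 2 at 6 hours has a source name giving 0.5 hours for its chilled channel. Replicate 1 correlated at 0.423 and 0.327 with the slides at 24 hours, at -0.00654 and 0.0639 with those at 12 hours and at 0.0962 and -0.22 with those at 6 hours. All slides share the array and, by the methods, the dye orientation, which is unsettled for replicate 2 at 2 hours. The part of either in these values was not tested.

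**Figure D2:**
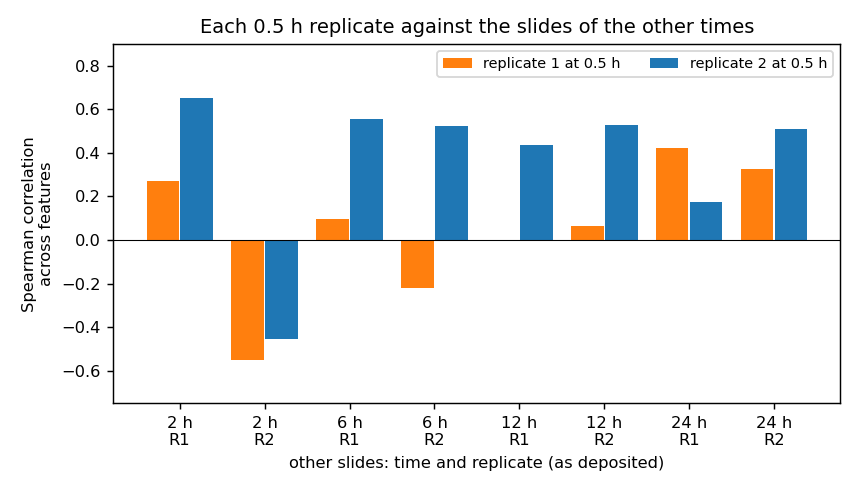
Spearman correlation across features (y axis) of each 0.5 hour replicate with each slide of the other times (x axis, R1 and R2 being the replicates, as deposited). Replicate 2 lies between 0.175 and 0.653 for every slide other than replicate 2 at 2 hours, whereas replicate 1 lies between -0.22 and 0.423 for the same slides.

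No feature passed the test at 0.5 hours. With limma and weights that allow each time point its own spread, 0 features were called higher and 0 lower at an adjusted p of 0.05, 0.0% of 6010 in both directions, and the lowest adjusted p was 0.616. At an unadjusted p of 0.05 in the same limma fit, 363 features (6.04%) were higher and 16 (0.266%) lower. The 0.5 hour slides received a weight of 0.41, against 1.615 at 6 hours, 1.506 at 12 hours and 1.002 at 24 hours. Where 1 spread was assumed for all times limma called 49 features (0.815%) higher, and where the 0.5 hour slides were fitted alone 33 (0.549%) higher and 10 (0.166%) lower; 19 features were called higher by both of these fits. In the weighted fit each p rests on a spread pooled over the replicates of 0.5, 6, 12 and 24 hours and moderated across features. It is not the spread of the 2 replicates at 0.5 hours alone. The fit of 0.5 hours alone had 1 residual degree of freedom, so its p leaned on a spread shared across features. Of its calls, 28 of the 33 higher and 3 of the 10 lower reached 1.8-fold in both replicates. The ratios below are therefore descriptions of features that reached 1.8-fold, the fold used in the study's methods, in each replicate.

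At that fold 312 features (5.19% of 6010) were higher and 21 (0.349%) lower in both replicates. With the median of each column set to 0 the counts were 183 (3.04%) and 36 (0.599%). The 183 and the 21 were in both counts. Among features at the fold in both replicates, higher ones thus outnumbered lower ones under either setting. In replicate 1 alone the order was reversed after centring, with 727 features (12.1%) higher and 1100 (18.3%) lower at the fold. Replicate 2 then had 630 (10.5%) higher and 248 (4.13%) lower. The median over all features was 0.13 in the mean of the replicates, and -0.04 after that centring. In all 4 spots, 98 features reached the fold higher and 9 lower. Of the 312 features, 189 had 1 gene in the annotation and 26 (8.33%) had a gene name, against 710 of all 6010 (11.8%), and none was on the study's list of induced genes, of which 99 features had values.

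The highest named feature belonged to OsSPS3F, a sucrose phosphate synthase that catalyses a controlling step of sucrose synthesis, on chromosome 6. Its log2 ratio was 7.92 and 2.28 in the spot sets of replicate 1 and 6.18 and 1.68 in those of replicate 2. All 4 spots were above 1.8-fold, but spot set 1 exceeded spot set 2 by more than 4 on both slides, so the size of the ratio differed with the spot set. The mean was 4.52 ± 0.83 (SD, n = 2), 22.9-fold, with a limma adjusted p of 0.623. It was called where 1 spread was assumed (adjusted p = 0.0373) and in the fit of 0.5 hours alone (adjusted p = 5.97e-13) by limma. The latter value rests on 1 residual degree of freedom and on a ratio whose size differed with the spot set. OsSPS4F, another sucrose phosphate synthase, had 0.09 in replicate 1 and -0.50 in replicate 2, and CFBP1, the cytosolic fructose bisphosphatase of the same pathway, had -0.27 and 0.43, so neither shared the high ratio.

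Next in order was gid1, the soluble gibberellin receptor. It had 3.601 and 1.65 in replicate 1 and 2.45 and 1.38 in replicate 2, a mean of 2.27 ± 0.50 (SD, n = 2) or 4.82-fold. All spots again exceeded 1.8-fold, and limma gave an adjusted p of 0.635, against 0.0397 with 1 spread and 0.00839 from the 0.5 hour slides alone. The other member of the gibberellin list, ks1, an ent-kaurene synthase of gibberellin precursor synthesis by its name, had 0.48 in replicate 1 and -0.59 in replicate 2.

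BGLU19, a beta-glucosidase of glycoside hydrolase family 1, had 1.90 and 2.92 in replicate 1 and 2.23 and 1.13 in replicate 2. Its mean of 2.05 ± 0.52 (SD, n = 2) was 4.13-fold, with a limma adjusted p of 0.616, which other features shared as the lowest, and of 0.0373 with 1 spread and 0.0329 from the 0.5 hour slides alone. A second feature of the gene had 0.82 in replicate 1 and 1.05 in replicate 2, of one sign but under the fold in replicate 1. RBP-208, which encodes an RNA-binding protein, was the remaining named feature called with 1 spread (limma adjusted p = 0.0413, against 0.635 in the weighted fit). It had 1.69 and 1.11 in replicate 1 and 1.34 and 2.43 in replicate 2, mean 1.64 ± 0.35 (SD, n = 2). A second feature of RBP-208 stood at 0.03 in replicate 1 and 0.06 in replicate 2, so the features of this gene differed.

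OsPIP2;2, an aquaporin of the plasma membrane, reached the fold higher in both replicates on each of its features. The first had 1.46 and 2.43 in replicate 1 and 2.19 and 1.35 in replicate 2, a mean of 1.86 ± 0.13 (SD, n = 2). The second had 1.13 and 0.73 in replicate 1 and 1.34 and 1.503 in replicate 2, a mean of 1.18 ± 0.35 (SD, n = 2). The limma adjusted p was 0.782 for either, and with each column's median set to 0 the second feature no longer reached the fold in both replicates. Close relatives in the aquaporin family can hybridise to the same cDNA, so the values may be shared with them.

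KIN12C, a motor protein of the kinesin-12 family, had 0.59 and 1.47 in replicate 1 and 2.02 and 3.02 in replicate 2, and its mean of 1.78 ± 1.05 (SD, n = 2) had the widest difference between replicates among the 10 highest named features. The others of these 10 were bip131 with a mean of 1.39, OsRMR2, a vacuolar sorting receptor, with 1.37, MTP8, a metal transporter, with 1.29 and the seed glutelin gene GLUA-2 with 1.26. OsRMR2 and MTP8 lacked a value for spot set 1 of replicate 2, and a second feature of OsRMR2 had -0.28 in replicate 1 and 0.41 in replicate 2. All 5 had a limma adjusted p of 0.635 to 0.913. With each column's median set to 0, KIN12C and GLUA-2 no longer reached the fold in both replicates.

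The features that reached the fold lower in both replicates were few, 21 out of 756 in replicate 1 and 162 in replicate 2. How many of them unrelated replicates would share was not tested. The features of NSHB2 had the lowest means among the 6 with a gene name. Some features without a single gene in the annotation had lower means. NSHB2 is a non-symbiotic haemoglobin, of the family that binds oxygen and scavenges nitric oxide in plant tissue, on chromosome 3. The first feature had -1.93 and -2.08 in replicate 1 and -1.499 and -1.66 in replicate 2, a mean of -1.79 ± 0.30 (SD, n = 2). The second had -0.95 and -0.92 in replicate 1 and -2.59 and -2.29 in replicate 2, a mean of -1.69 ± 1.07 (SD, n = 2). All 8 spots were at or under -0.92 and the spot sets of a slide differed little, while the limma adjusted p was 0.771 and 0.906. Of the 293 genes with 2 or more features, NSHB2 was the one with 2 lower features and OsPIP2;2 the one with every feature at the fold higher in both replicates, which did not hold after centring, and the features of 181 of these genes had means of 1 sign.

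DRR2, annotated also as LTI6B, a small membrane protein of a family named for induction by low temperature, was lower as well. It had -1.43 and -1.64 in replicate 1 and -0.95 and -1.02 in replicate 2, a mean of -1.26 ± 0.39 (SD, n = 2; limma adjusted p = 0.771). DRR1, its relative LTI6A, had -1.13 in replicate 1 and 0.08 in replicate 2. CSase, a cysteine synthase, had -1.16 and -1.10 in replicate 1 and -0.94 and -1.12 in replicate 2. RPS27AB, a fusion of ubiquitin and ribosomal protein S27a, had -1.18 and -1.07 in replicate 1 and -1.02 and -1.02 in replicate 2. The last of the 6 named lower features was 2-HPCL, a peroxisomal lyase by its name, with -1.003 and -0.99 in replicate 1 and -0.98 and -1.20 in replicate 2. These 3 features had tight spots, with an SD between replicates of 0.06 to 0.07, and limma adjusted p of 0.807 to 0.878.

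**Figure D3:**
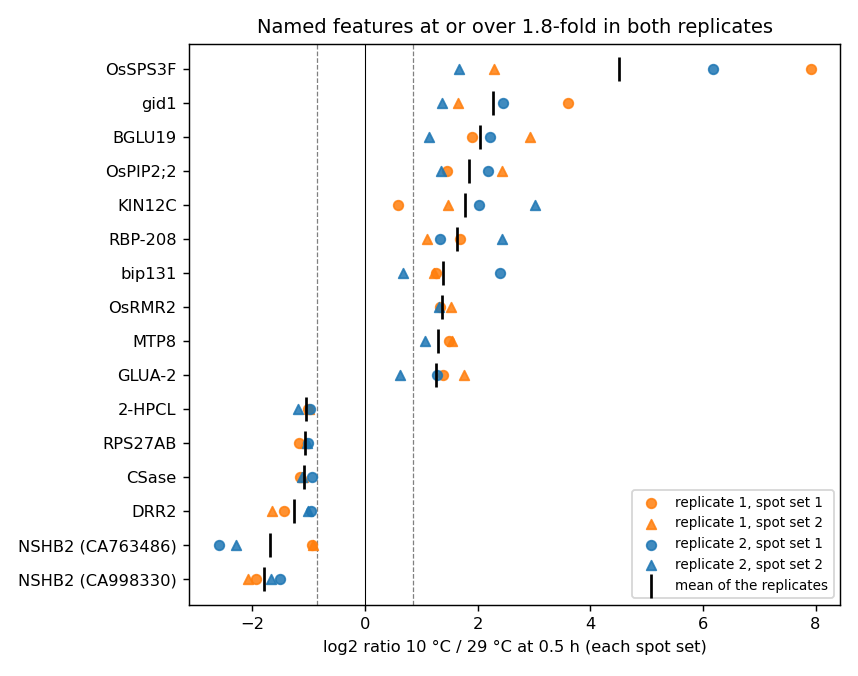
The 10 highest and 6 lowest named features among those at or over 1.8-fold in both replicates at 0.5 hours (circles spot set 1, triangles spot set 2), with the log2 ratio of 10°C over 29°C (x axis) in each spot set of each replicate (orange for replicate 1, blue for replicate 2), the mean of the replicates as a bar and 1.8-fold as dashed lines. OsSPS3F reaches 7.92 in one spot set and 1.68 in another, while the spots of 2-HPCL, RPS27AB and CSase lie close together near -1.

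Among other hormone and signalling genes the replicates agreed for some. NINJA1, an adaptor of the jasmonate repressors, had 1.08 and 1.45 in replicate 1 and 1.15 and 1.17 in replicate 2, mean 1.22 ± 0.08 (SD, n = 2). Of the 10 jasmonate features, NINJA1 alone (10.0%) reached the fold in both replicates, beside 5.19% of all features higher. The receptor gene COI2 had 0.73 in replicate 1 and 1.08 in replicate 2 on one feature and 0.41 and -0.57 on the other. The 2 jasmonate features EG2 (JAZ1) and aoc were below 0 in both replicates. Over all 6010 features, 844 were below and 2139 above 0 in both. GH3.7, of the family that conjugates auxin to amino acids, had 1.04 in both spot sets of replicate 1 and 0.92 and 1.87 in replicate 2, mean 1.22 ± 0.26 (SD, n = 2). Of 17 auxin features, 8 were above 0 in both replicates, 2 below 0 in both, and GH3.7 and a feature of the response factor ARF3 (0.96 in each replicate) reached the fold (11.8%, beside 5.19% of all features), which neither did with each column's median set to 0, while the other ARF3 feature had -0.31 in replicate 1 and 0.60 in replicate 2. IAA19, an auxin response repressor, had -0.57 in replicate 1 and -0.13 in replicate 2.

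MPK16, a MAP kinase, had 1.09 and 1.28 in replicate 1 and 1.21 and 1.14 in replicate 2, a mean of 1.18 ± 0.002 (SD, n = 2). The spots of both slides lay within a narrow range. It was the only one of 34 calcium and kinase features (2.94%) to reach the fold in both replicates, beside 5.19% of all features higher. PIP5K, a phosphoinositide kinase, had 0.77 in replicate 1 and 0.79 in replicate 2, CAMK1 0.44 and 1.22, and the calcium sensor CBL2 1.54 and 0.15. CDKE-1, a cyclin-dependent kinase, had 0.26 in replicate 1 and 0.53 in replicate 2.

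Of 20 glycolysis and fermentation features 3 were above and 5 below 0 in both replicates, and of 4 clock features 1 was above and 1 below. Over all 6010 features, 2139 were above and 844 below 0 in both, and 50.3% had opposite signs. PDC, pyruvate decarboxylase, had 3 features: the first had 0.80 in replicate 1 and 2.43 in replicate 2, another, of the same gene on chromosome 5, had -0.88 and 0.08, and the last, of a gene of that name on chromosome 3, had -1.17 and 0.18. GAPC, cytosolic glyceraldehyde phosphate dehydrogenase, had 1.01 in replicate 1 and -0.24 in replicate 2 on one feature and 0.33 and -0.31 on the other. The clock factor CCA1 had -0.86 in replicate 1 and 1.70 in replicate 2 on one feature, and 0.03 and 1.05 on the other. No feature of either list reached the fold in both replicates, and at 5.19% higher and 0.349% lower over all features lists of this size need not hold one.

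Cold and dehydration genes gave no common direction. Of 9 features, 2 were above 0 in both replicates, DI19-4 (0.48 in replicate 1 and 0.79 in replicate 2) and ML, annotated as salT (1.0 and 0.31), and 2 below 0 in both, DRR2 and the proline synthesis gene P5CS1 (-0.81 and -0.49). Over all 6010 features, 2139 were above and 844 below 0 in both. The lipid transfer protein gene LTP had -1.56 in replicate 1 and 1.04 in replicate 2. The dehydrin Dhn1 had 0.49 and -0.31. DREB2B, the one DREB gene with a name on the array, had -1.08 in replicate 1 and -0.07 in replicate 2.

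Reactive oxygen scavenging genes stood on either side of 0. Of 16 features, 5 were above and 4 below 0 in both replicates, against 2139 and 844 of all 6010 features. None of the 16 reached the fold in both, beside 5.19% of all features higher. The ascorbate peroxidases APX2 (-1.0 in replicate 1 and -0.46 in replicate 2) and APX1 (-0.66 and -0.69) were below 0 in both, and CAT-B, a catalase, had -0.95 and -0.13 on one feature and 0.04 and 0.84 on the other. Of 8 phenylpropanoid features none was above 0 in both replicates, beside 35.6% of all features. PAL, the entry enzyme of that pathway, had -0.78 in replicate 1 and 0.92 in replicate 2, and 4CL-3, a coumarate ligase, had -0.82 and -0.10.

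Ribosomal protein genes were the list with the lowest median in the mean of the replicates other than the single DREB feature. The list holds only features with a gene name. Ribosomal proteins known only by the study's annotation are outside it, and some of those had opposite signs in the replicates. Of 12 features, 7 were below 0 in both replicates and 1 above 0 in both, against 844 and 2139 of all 6010 features. The list median was -0.49, against 0.13 over all features. The median was -0.95 in replicate 1 and -0.24 in replicate 2. RPS27AB reached the fold in both replicates, and the large subunit genes QM1 (-1.30 in replicate 1 and -0.72 in replicate 2), RPL3 (-1.10 and -0.53) and 60SP0 (-0.72 and -0.64) did not, while a second feature of 60SP0 had 0.47 and 0.11. With each column's median set to 0 the list median was -0.67 and QM1 reached the fold lower in both replicates. Of 20 ubiquitin and proteasome features, 6 were below and 3 above 0 in both replicates, against 844 and 2139 of all 6010 features. The median of these 20 was -0.60 in replicate 1 and 0.05 in replicate 2.

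The remaining lists held few features at the fold. Over all 6010 features, 2139 (35.6%) were above and 844 below 0 in both replicates, and 312 (5.19%) reached the fold higher in both. Of 14 sucrose and starch features, 5 were above 0 in both replicates and OsSPS3F alone (7.14%) reached the fold. Of 12 abscisic acid features 1 was above 0 in both and none reached it, and of 3 ethylene features 1 was above and 2 were below 0 in both. Of 24 cytoskeleton features, 7 were above and 4 below 0 in both, with KIN12C at the fold (4.17%), and of 11 chaperones 2 were above and 2 below. The median was 0.16 for sucrose and starch, 0.06 for abscisic acid, 0.01 for the cytoskeleton and -0.13 for chaperones, beside 0.13 for all features, and the abscisic acid median was -0.118 with each column's median set to 0. The 5 photosynthesis features had a median of -1.01 in replicate 1 and 0.35 in replicate 2, with 2 below 0 in both.

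**Figure D4:**
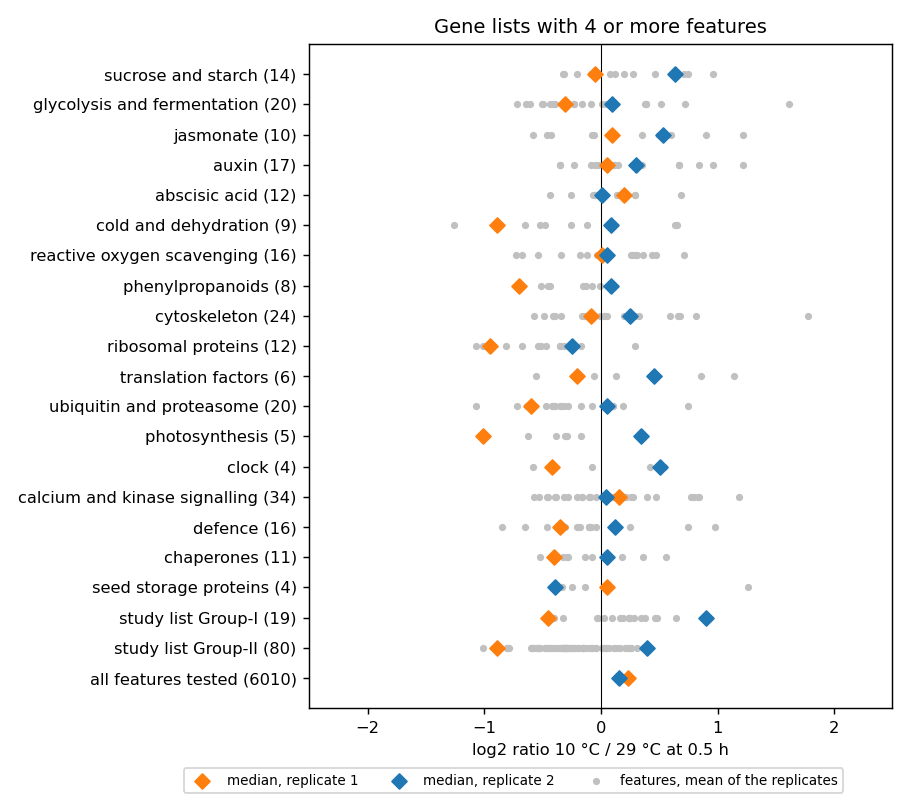
Gene lists with 4 or more features (rows, number of features in brackets) and their log2 ratio of 10°C over 29°C at 0.5 hours (x axis): grey points are features as the mean of the replicates, and diamonds are the list medians in replicate 1 (orange) and replicate 2 (blue). The medians lie on both sides of 0 for most lists, as for study list Group-I with -0.45 in replicate 1 and 0.90 in replicate 2, and both lie below 0 for the ribosomal proteins; OsSPS3F at 4.52 is beyond the axis.

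The study's list of early response genes was chosen by the study on these samples, so it is not independent evidence, and at 0.5 hours it was divided by replicate. Group-I holds the rapid and Group-II the slow members. Of the 19 Group-I features, 18 stood above 0 in replicate 2 (lowest -0.27, median 0.90, highest 1.89) and 1 in replicate 1 (lowest -1.67, median -0.45, highest 0.13). Of the 80 Group-II features, 57 stood above 0 in replicate 2 (lowest -1.004, median 0.39, highest 1.75) and 6 in replicate 1 (lowest -1.84, median -0.89, highest 0.54). A single feature of each group was above 0 in both replicates, and none reached 1.8-fold in both, beside 35.6% and 5.19% of all features. The universal stress protein of Group-I had 0.13 in replicate 1 and 1.16 in replicate 2, and the silicon channel gene Lsi6 had -0.92 and 1.88.

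The transcription factors singled out in the study were close to 0, divided between the replicates or, for EREBP-1, somewhat below 0 in every spot. ROS-bZIP1 had -0.01 and -0.09 in the spots of replicate 1 and 0.17 and 0.03 in those of replicate 2. The bHLH factor had -0.55 and -0.41 in replicate 1 and 0.76 and 1.16 in replicate 2. OsMyb4, listed as LTR1, had -0.53 and -0.36 in replicate 1 and 0.28 and 0.06 in replicate 2. EREBP-1, an ethylene response element binding protein, had -0.41 and -0.43 in replicate 1 and -0.01 and -0.29 in replicate 2, and a further feature of it, not on the list, had 0.10 and 0.71 as replicate means.

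In the defence list, 3 of 16 features were above and 3 below 0 in both replicates, against 2139 and 844 of all 6010 features. LSD1, a zinc finger regulator of cell death, had -0.69 and -0.97 in replicate 1 and -0.94 and -0.81 in replicate 2, just under the fold in replicate 1 as deposited and at it in both replicates after centring, and its second feature had -0.20 and 0.01 as replicate means. HIRL2, of the hypersensitive-induced reaction family, had 1.22 in replicate 1 and 0.73 in replicate 2, and NPR4, of the family of salicylate receptors, had -0.81 and 0.15. The translation initiation factor gene eIF-4E-1 had -1.25 in replicate 1 and 0.13 in replicate 2, and eIF-4A-1 had 0.89 and 0.84. Of the 6 translation factor features, 3 were above 0 in both replicates, beside 35.6% of all features.

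The largest ratios of all belonged partly to genes without a name. LOC4347142, chosen here after its values were seen, had 3.33 and 2.95 in replicate 1 and 3.49 in the one spot of replicate 2. LOC4332013, chosen likewise, had 2.30 and 3.16 in replicate 1 and 1.43 and 4.24 in replicate 2, mean 2.78. Higher means than this were also held by LOC4335933 (3.23, with 1 spot in replicate 2) and LOC4343246 (2.92). A second feature of LOC4343246 had a mean of 0.25. LOC4324332 was higher in both replicates on 2 of its 3 features, at means of 1.96 and 1.15, and on the first of these alone after centring.

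The median of the features higher at 0.5 hours stood above 0 on every slide at 6, 12 and 24 hours. Of the 312, 112 (35.9%) were at or over 1.8-fold in both replicates of at least 1 of 6, 12 and 24 hours, against 514 of 6010 (8.55%), and 200 were at none. At 6 hours 54 of the 312 (17.3%) were, against 135 of all 6010 (2.25%), at 12 hours 24 (7.69%), against 214 (3.56%), and at 24 hours 69 (22.1%), against 302 (5.02%). The median of the 312 was 0.44 and 0.54 in the replicates at 6 hours, 0.34 and 0.62 at 12 hours and 0.71 and 0.87 at 24 hours, against -0.01 to 0.18 over all features. The time points had their own controls on their own slides, by the sample titles. For spot set 2 of replicate 2 at 6 hours the source name instead gives 0.5 hours for the chilled channel. By the methods all shared the dye orientation, so a lasting dye preference cannot be told apart from a lasting response. Of the 21 lower features, 0 were lower at this fold in both replicates at 6 hours, 4 at 12 hours and 2 at 24 hours, against 5, 61 and 39 of all 6010 features at these times.

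**Figure D5:**
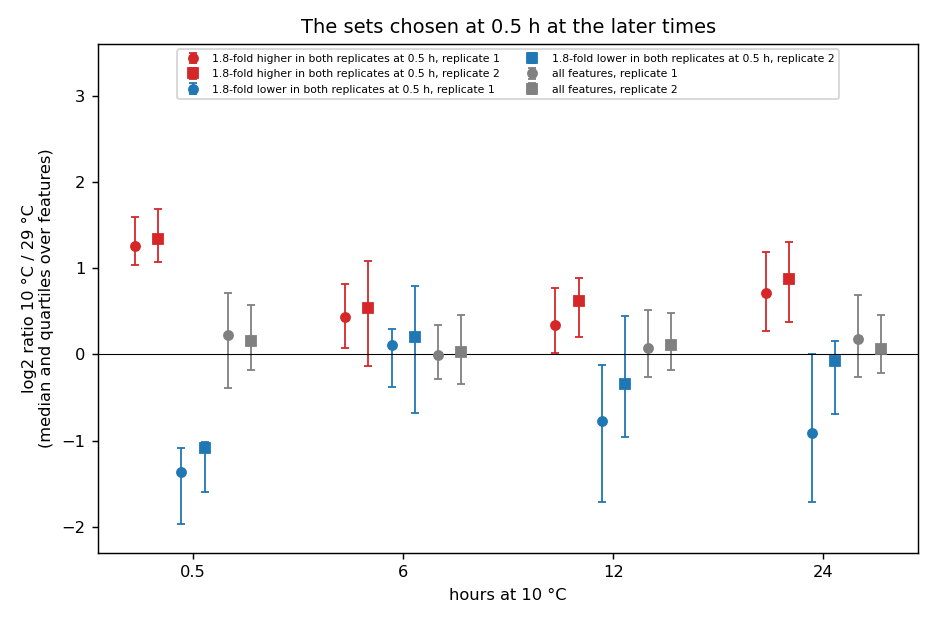
Median log2 ratio of 10°C over 29°C (y axis, bars from the first to the last quartile over features) at 0.5, 6, 12 and 24 hours (x axis) in each replicate, for the 312 features 1.8-fold higher and the 21 lower in both replicates at 0.5 hours and for all features. The 0.5 hour values chose the sets; at 24 hours the 312 have medians of 0.71 and 0.87, against 0.18 and 0.06 for all features, and the 2 hour slides are left out.

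The difference between 0.5 hours and the mean of 6, 12 and 24 hours was tested in the same limma fit over 6001 features. It called 1 feature higher at 0.5 hours (0.0167%) and 0 lower (0.0%), with 112 and 52 at an unadjusted p of 0.05. The called feature carried no gene in the annotation; it had 2.22 in replicate 1 and 1.61 in replicate 2 at 0.5 hours, 1 spot each, against -7.51 in the one slide with a value at 6 hours, -8.93 in that at 12 hours and -1.71 and -1.18 at 24 hours. For the named genes the adjusted p of this difference was 0.998 or above. Thus BGLU19 had -0.36 and -0.16 at 6 hours, 0.39 and 0.65 at 12 hours and 1.32 and 0.92 at 24 hours, and NSHB2 had, on its first feature, 0.11 and 0.87 at 6 hours, 0.20 and 0.69 at 12 hours and 0.15 and -1.54 at 24 hours. NINJA1 stood at 1.77 and 2.64 at 6 hours, 0.62 and 0.89 at 12 hours and 0.74 and 1.24 at 24 hours, and MPK16 at 1.26 in both replicates at 6 hours, 0.72 and 1.01 at 12 hours and 0.52 and 0.98 at 24 hours. Neither gene was below 0 on any of these slides.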

How the data were processed

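RNA of chilled and control shoots was labelled with Cy3 and Cy5 and hybridised to a cDNA array. Per the methods, the authors subtracted the background from the median signal of each channel and took the log2 ratio of chilled over control, scaled to a mean ratio of 1 over all features; the deposited log2 columns at 0.5 hours had mean ratios of 1.35 to 1.5. The 0.5 hour columns are 2 spot sets of each of 2 slides. Spot sets were averaged per slide. Slides at 0.5, 6, 12 and 24 hours entered limma 3.58.1 (R 4.3.3) with array weights per time, moderated tests against 0 and Benjamini-Hochberg adjustment at 0.05 over 6010 features. The fit was tested on simulated data. The 2 hour slides were left out because the direction of one is unsettled. Spot set 2 of replicate 2 at 6 hours has a source name giving 0.5 hours for its chilled channel. That column was kept by its title, and left out as an alternative. It correlated at Spearman 0.738 with the other spot set of its slide. With the 0.5 hour columns it correlated at 0.479 and 0.515 in replicate 2 and at -0.201 and -0.159 in replicate 1. Of 6080 features, 4172 have 1 gene in the platform annotation, 97 several and 1811 none, and only those with 1 gene were named.

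Named features were the 10 highest and up to 10 lowest with a gene name at 1.8-fold in both replicates, up to 4 of each gene list, the transcription factors of the study and genes known from earlier results; other list members are given as context. The members and lists were chosen with earlier results of these data known. Alternatives were centring, spot sets, weights, folds, samples in the fit, a replicate block and omission of each replicate. No sequences are shown, and promoter motifs were not analysed here.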

Additional observations from a re-analysis of the deposited data

Results flagged for a closer look

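Several named features had every 0.5 hour replicate on one side of 0 and every replicate of a later time on the other. The differences at single times were not tested, and against the mean of 6, 12 and 24 hours limma gave an adjusted p of 0.998 for each. BGLU19 averaged 2.046 at 0.5 hours and -0.262 at 6 hours. OsRMR2 averaged 1.372 at 0.5 hours and -0.08 at 6 hours. NSHB2 averaged -1.794 at 0.5 hours, 0.489 at 6 hours and 0.443 at 12 hours on its first feature. CSase averaged -1.077 at 0.5 hours and 0.477 at 6 hours.

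DRR2 averaged -1.261 at 0.5 hours, 0.23 at 12 hours and 0.006 at 24 hours. LSD1 averaged -0.849 at 0.5 hours and 0.145 at 12 hours. The mean of EREBP-1 was -0.288 at 0.5 hours, and its later means were 0.471 (6 hours), 0.944 (12 hours) and 1.162 (24 hours). That of IAA19 was -0.353 at 0.5 hours, with later means of 0.793 (6 hours), 1.602 (12 hours) and 1.294 (24 hours).

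The feature without a gene that limma called higher at 0.5 hours than later differed by 7.879 on the log2 scale (adjusted p = 0.00486). It rested on 1 spot per slide at 0.5 hours. The call was lost in some of the alternatives, which are listed below. In others, centring and the replicate block among them, the count stayed at 1 feature.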

How the results depend on the processing

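Counts at a fold in both replicates moved with the rule. With each column's median set to 0 they were 183 higher and 36 lower (KIN12C, GLUA-2, GH3.7, ARF3 and the second OsPIP2;2 feature were lost, QM1 and LSD1 gained), at 1.5-fold 649 and 56, at 2-fold 12 lower, in all 4 spots 98 and 9, in the mean of the replicates 691 and 81, and 12 lower among features with a value in every spot set. Without replicate 1 or without replicate 2 they ranged from 854 to 1180 higher and from 175 to 763 lower. The 0 calls of limma became 49 higher without array weights, 33 higher and 10 lower from the 0.5 hour slides alone and 1 higher with spot set 1 alone. The 1 feature that differed from the later times became 0 with spot set 2 alone, with linear averaging, with complete features, without the column at 6 hours whose source name gives another time, with spot sets as a random block, and without either replicate (0 to 0). Of 80 such alternative counts 55 stayed within 1.5 times the reported count. Most of these 55 were 0 where 0 was reported or 1 where 1 was, so they say little about stability. The cause of the others was not tested.

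Named features seldom turned round apart from the omission of a replicate. With medians set to 0, PAL was at -0.108, GAPC (feature 3043) at -0.164, RBP-208 (feature 3570) at -0.131, CFBP1 at -0.1 and ROS-bZIP1 (LOC4346208) at -0.153. With spot set 1 alone PAL was at -0.011, OsPRR73 at 0.04 and GAPC (feature 3043) at -0.03, and with spot set 2 alone ROS-bZIP1 was at -0.033. Leaving out each replicate in turn gave these ranges. They were for PAL -0.781 to 0.918, eIF-4E-1 -1.251 to 0.134, GAPC (feature 52) -0.243 to 1.008, OsPP2C10 -1.287 to 0.414, LOC4326959 -0.479 to 0.958, eIF3k -1.227 to 0.775, FNR -1.151 to 0.573, chaperonin -0.887 to 0.054, OsPRR73 -0.366 to 0.218. Further ranges were OsPAG1 -1.307 to 0.042, PDC (feature 1215) -0.878 to 0.084, NPR4 -0.815 to 0.152, 4CLL7 -1.216 to 0.195, OsPP2C14 -0.151 to 0.736, GLUA-3 -0.509 to 0.234, OsPP2C31 -0.307 to 0.895, LTR1 -0.445 to 0.167, LSD1 (feature 2759) -0.2 to 0.009. Further ranges were GAPC (feature 3043) -0.309 to 0.333, CCA1 (feature 3095) -0.858 to 1.696, PRXIIF -0.069 to 1.497, OsPDIL2-1 -0.398 to 1.125, 4CL4 -0.428 to 0.12, PDC (feature 3828) -1.169 to 0.178, AD709 -1.558 to 0.114, CFBP1 -0.274 to 0.427, LOC4346208 -0.049 to 0.096. Further ranges were PETE -0.971 to 0.346, ks1 -0.588 to 0.48.

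The replicate numbers were checked as pairs across times. Deviations of same-numbered slides from their time's mean correlated at -0.11 to 0.277, so the numbers were not taken to pair the slides. With the replicate number as a block, limma called 0 higher and 0 lower at 0.5 hours and 1 feature different from later times. The precision is limited by 2 slides per time; the deposited ratios hold no intensities, so signal over background is unknown.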
